A study of Mus musculus with 2 samples.

Results

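BRD2-bound chromatin loops were examined at 6 targets or components of Nodal and BMP signalling in mouse embryonic stem cells: Lefty1, Lefty2, Nodal, Id1, Id2 and Id3. Loops were taken from the deposited list where either outer edge lay inside 1 of 5 windows of mm9. The windows were 182750000 to 182950000 on chromosome 1 for Lefty1 and Lefty2, 60800000 to 60950000 on chromosome 10 for Nodal, 152480000 to 152640000 on chromosome 2 for Id1, 25700000 to 25860000 on chromosome 12 for Id2 and 135620000 to 135780000 on chromosome 4 for Id3. This gave 31 of the 7732 listed loops: 10 at Lefty1 and Lefty2, 2 at Nodal, 16 at Id1, 3 at Id3 and 0 at Id2. Of the 10 at Lefty1 and Lefty2, 1 was longer than 5 Mb and is described apart, which left 30 loops.

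The data came from ChIA-PET, in which an antibody, here to the bromodomain protein BRD2, pulls down chromatin, and DNA ends held together are ligated and sequenced as pairs. The 2 samples, labelled replicates 1 and 2, form 1 group of untreated wild-type cells of the V6.5 embryonic stem line, cultured on irradiated mouse fibroblasts with serum and LIF. The labels do not say whether the fibroblasts were removed. The deposited list is of the merged dataset, so no value below has a replicate error, and nothing compares conditions.

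Nodal is a secreted ligand of the TGF-beta family that signals through activin-type receptors and SMAD proteins. Lefty1 and Lefty2 are secreted antagonists of Nodal, and their genes are induced by the pathway that they inhibit. BMPs signal through another set of SMAD proteins, and the Id genes are classic targets of that branch. Id proteins are helix-loop-helix proteins without a DNA-binding basic region, which hold other helix-loop-helix factors inactive. In mouse embryonic stem cells, BMP signalling acts with LIF to sustain self-renewal, and Id genes are known effectors of it. BRD2 belongs to the BET family, whose bromodomains recognise acetylated histone tails on active regulatory DNA.

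Other genes neighbour the members, and whether their starts lie in the windows was not analysed here. In the order of GRCm38.p6, Lefty2 is preceded by Sde2 and Lefty1 is followed by Tmem63a. Nodal lies between Pald1 and Eif4ebp2, Id1 between Mcts2 and Cox4i2 with Bcl2l1 (an inhibitor of apoptosis) next, Id2 between Kidins220 and Rnf144a, and Id3 between Rpl11 and E2f2. Gene starts were not placed on mm9 here. An anchor is therefore assigned to a window and not to a promoter, and contacts of Lefty1 cannot be told apart from those of Lefty2.

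RefSeq's promoter table held 3 of the 6 members, Nodal, Id2 and Id3, and these are shown. Their windows also had the fewest listed loops. Each sequence below is the 250 bases before the annotated start in GRCm38.p6, 5′ to 3′ on the gene's strand. Nodal is on the plus strand at chr10:61417722-61417971, Id2 on the minus strand at chr12:25096093-25096342 and Id3 on the plus strand at chr4:136143572-136143821. These positions belong to another build than the loops and cannot be set against them. Capitals mark matches on either strand to CAGAC (the SMAD box), GGCGCC (a GC-rich SMAD site), ATCCACA (FOXH1), CATTGTT (SOX) or ATGCAAA (POU), none of which overlapped here.
Nodal: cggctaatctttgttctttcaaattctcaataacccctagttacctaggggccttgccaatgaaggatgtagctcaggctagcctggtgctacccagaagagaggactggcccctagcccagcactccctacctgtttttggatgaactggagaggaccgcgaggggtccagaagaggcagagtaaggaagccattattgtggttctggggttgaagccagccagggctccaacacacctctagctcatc
Id2: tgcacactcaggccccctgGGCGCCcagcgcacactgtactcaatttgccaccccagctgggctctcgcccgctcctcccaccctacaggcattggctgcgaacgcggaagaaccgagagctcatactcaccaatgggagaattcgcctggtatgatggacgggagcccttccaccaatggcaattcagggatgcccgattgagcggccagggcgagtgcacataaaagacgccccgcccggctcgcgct
Id3: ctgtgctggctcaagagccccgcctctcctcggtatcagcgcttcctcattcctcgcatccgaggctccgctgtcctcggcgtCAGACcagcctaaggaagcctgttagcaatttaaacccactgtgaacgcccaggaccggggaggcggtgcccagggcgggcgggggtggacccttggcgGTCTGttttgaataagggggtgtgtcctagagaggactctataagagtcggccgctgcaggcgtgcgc

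The Id2 sequence held 1 match to GGCGCC, with its first base 231 bases before the start. This motif was in 9.59% of the 32851 promoter sequences of that length in the table. The Id3 sequence held 2 matches to CAGAC, at 167 and 68 bases before the start, the second on the opposite strand. CAGAC was in 42.2% of all promoter sequences. The Nodal sequence held none of the 5 motifs, which says only that these letters are not in this stretch. The Id2 and Id3 sequences were both rich in CpG, with 18 each against a median of 6 over the table, whereas the Nodal sequence had 3. A match is a description of the sequence and not a bound site.

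Loops were unevenly spread over the windows. The Id1 window held 16 loops with a summed score of 53000 and the Lefty1 and Lefty2 window held 9 with a summed score of 37000. At Id3 there were 3 loops with a summed score of 6000, and at Nodal 2 loops with 4000. The Id2 window held none. The score is the authors' own value for each loop, a whole multiple of 1000 with a lowest value of 2000. Its unit is not given in the sources used here, and a loop missing from the list cannot be called absent.

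The number of loops at Id1 was uncommon for a stretch of this size. The chromosomes were divided into tiles of the same width as each window, and loops of up to 5 Mb were counted by the same rule. Among the 3293 tiles of 160 kb that held any loop edge, 29 tiles, or 0.881%, held 16 or more loops, and the median was 2. For Lefty1 and Lefty2, 216 of the 2978 tiles of 200 kb that held an edge, or 7.25%, had 9 or more. For Id3, 37.8% of the 3293 tiles of 160 kb that held an edge had 3 or more loops. For Nodal, 58.6% of the 3415 tiles of 150 kb that held an edge had 2 or more. Both thus lay within the bulk of the tiles with an edge, while most tiles of either width held none. The Id2 window was like the 79.0% of all 160 kb tiles that held no edge. The windows were placed around genes and the tiles were not, so these shares are a description and not a test.

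**Figure D1:**
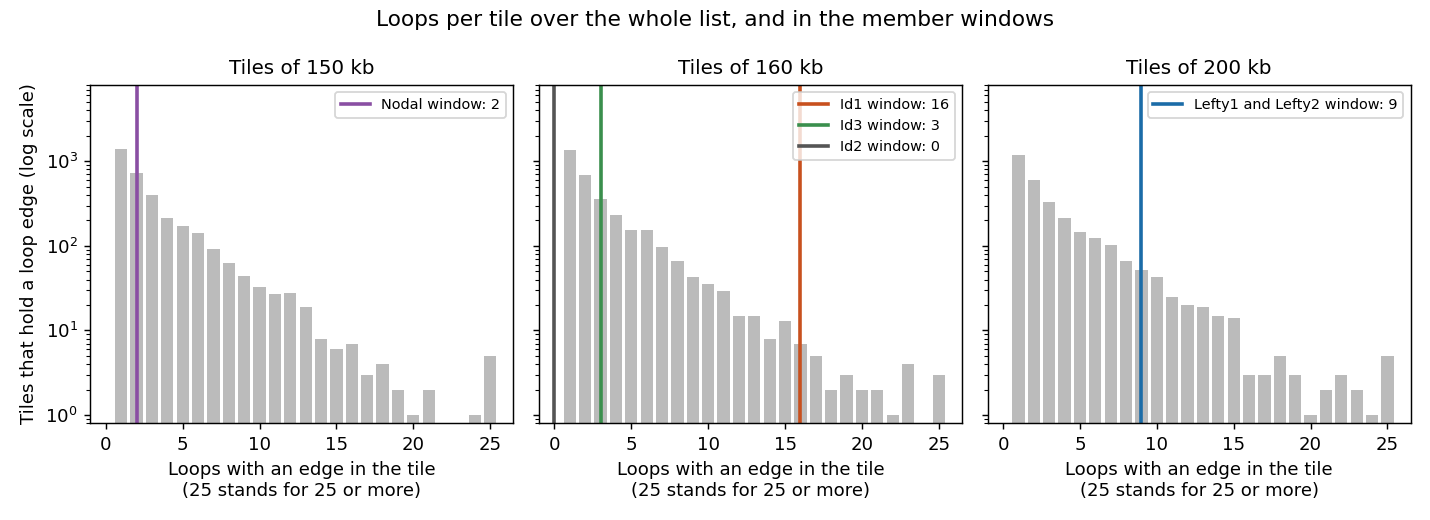
Number of BRD2 loops of up to 5 Mb with an edge in a tile (horizontal axis) against the number of tiles with that many loops (vertical axis, log scale), for tiles of 150, 160 and 200 kb; coloured lines mark the member windows. Only tiles that hold a loop edge are counted. The Id1 window, with 16 loops, lies in the sparse right tail, and the Lefty1 and Lefty2 window, with 9, lies at the shoulder. The windows of Id3 and Nodal, with 3 and 2, lie in the bulk of these tiles.

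At Lefty1 and Lefty2, 1 anchor carried most of the listed contacts. It lies at 182824460 to 182824597 on chromosome 1, 137 bp wide, and had 6 partners, a number reached by 96 of 9269 anchors, or 1.04%. Its summed score of 24000 was reached by 1.37% of anchors. Of this sum, 20000 came from 4 partners downstream and 4000 from 2 partners upstream. The contacts of this anchor thus leaned downstream, in number and in score.

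Among the downstream contacts were 4 loops with scores of 5000 or more, 3 of which started at this anchor. From the anchor at 182824460, the loop to 182855290 (30.8 kb) scored 7000, that to 182864130 (39.7 kb) 6000 and that to 182834787 (10.3 kb) 5000. The anchor at 182855064 to 182855290 was joined to 182864130 over 9.07 kb with a score of 8000, the highest of all 31 member loops. Each score was set beside listed loops of like length, where the shorter loop was at least 0.8 times as long as the longer. Among these, the scores of 8000, 7000 and 6000 were reached by 6.29%, 5.76% and 6.18% of loops, and the score of 5000 by 21.8%. The loops with scores of 6000 to 8000 thus stood in the top 10% for their length.

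The remaining loops at Lefty1 and Lefty2 were at or near the lowest score. The loop from 182834175 to 182855290 (21.1 kb), the loop from 182824460 to 182910477 (86.0 kb) and the upstream loops from 182780382 (44.2 kb) and from 182804235 (20.4 kb), both to 182824597, had a score of 2000 each. These 4 and the 4 strong loops made up a single connected group of 7 anchors, 8 loops and 2 closed triangles over 130.1 kb. Among the 77 groups of 7 anchors in the list, 25 had 8 or more loops, so the group was no denser than many of its size. The triangles joined 182824460 with 182834175 and 182855064, and with 182855064 and 182864130. The ninth loop, from 182743879 to 182760665 (16.8 kb, score 3000), shared no anchor with the others, and its left edge lay 6.12 kb outside the window.

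A gap bounded this group on its downstream side. Counting loops of up to 5 Mb, the next edge after the window lay 124 kb beyond its end, at 183074193. A loop from there to 183081623 had a score of 3000. On the upstream side the nearest loop that was no member ran from 182707564 to 182724467 with a score of 2000. No loop of up to 5 Mb passed over the whole window, and 3 longer ones did.

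The loop set apart at this window ran from 135975639 to 182876059 on chromosome 1, a length of 46.9 Mb, with a score of 3000. Only 7 of the 162 loops over 5 Mb in the list, or 4.32%, had a score of 3000 or more, and none of the 26 other loops of like length did. Its right edge carried no other loop and lay 11.9 kb past the nearest edge of the Lefty1 and Lefty2 group, at 182864130. The left anchor had 2 other loops, with a summed score of 7000, to partners near it.

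**Figure D2:**
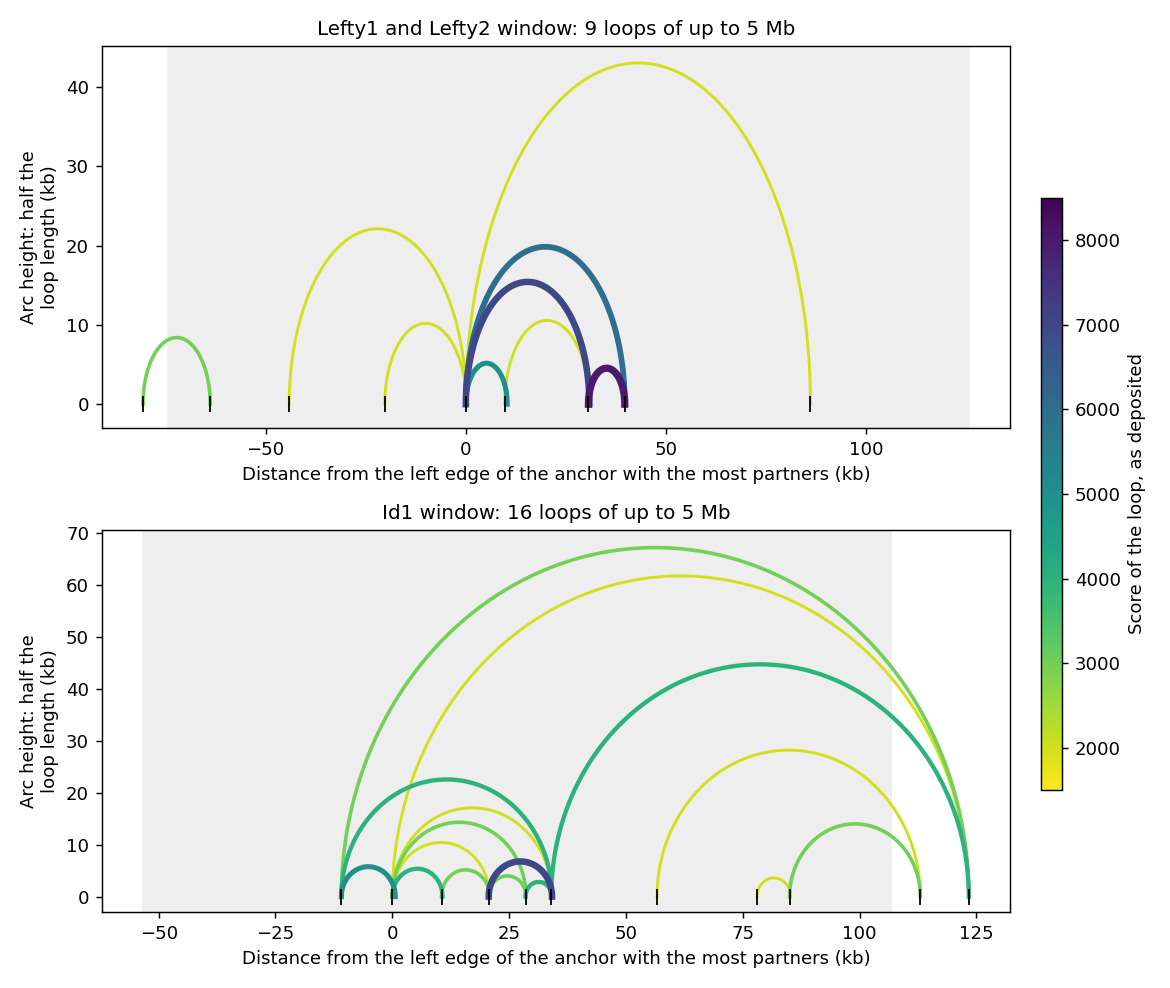
Loops of up to 5 Mb at Lefty1 and Lefty2 (top) and Id1 (bottom), each drawn as an arc between its outer edges; the horizontal axis is distance in kb from the left edge of the anchor with the most partners, the vertical axis 0.5 times the loop length in kb, colour and line width the deposited score, grey the window and ticks the anchors. At Lefty1 and Lefty2 the arcs with scores of 5000 to 8000 lie within 40 kb downstream of 1 anchor, whereas at Id1 loops join neighbouring anchors along a row of 6 and 3 longer arcs reach a common partner outside the window.

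At Id1, contacts were spread over a row of anchors and no single one dominated. The first 6 anchors of the group, from 152522453 to 152567526 on chromosome 2, lay 5.50 to 10.9 kb apart. All 5 neighbouring pairs among them were listed as loops, and of the 15 possible pairs 10 were listed, with a summed score of 37000. This stretch was singled out after its values were seen. The 5 pairs that were not listed each involved the first anchor, at 152522453, or the third, at 152543884 to 152544086.

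The strongest loop at Id1 ran from 152553989 to 152567526, 13.5 kb, with a score of 7000, which 9.08% of loops of like length reached. Next came the loop from 152522453 to 152533984 (11.5 kb, score 5000), reached by 21.8%. A score of 4000 was held by the loops from 152522453 to 152567526 (45.1 kb), from 152533355 to 152544086 (10.7 kb), from 152561864 to 152567526 (5.66 kb) and from 152567365 to 152656722 (89.4 kb). For their lengths, the 45.1 kb and 89.4 kb loops were the less common of these, since 16.2% and 13.7% of loops of like length scored as high, against 32.4% and 34.3% for the other two. The longest loop, from 152522453 to 152656722, was 134 kb long with a score of 3000, reached by 31.2% of loops of like length.

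The remaining 9 loops at Id1 were weaker, with 4 at a score of 3000 and 5 at 2000. The anchor at 152533355 to 152533984 had the most partners, 6, of which 5 were downstream, and its scores summed to 18000. That is the same number of partners as at the main Lefty1 and Lefty2 anchor, reached by 1.04% of anchors. The anchor at 152567365 to 152567526 had 5 partners, reached by 2.59% of anchors. Its summed score was larger, 21000, reached by 2.22%, and 17000 of it came from upstream. The 34.2 kb loop between these anchors scored 2000.

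A partner outside the Id1 window tied the row to a second set of anchors. The anchor ending at 152656722, beyond the window's end, had 4 partners, 3 of them in the row, at 152522453, 152533355 and 152567365. Downstream of the row, a loop of 7.18 kb joined 152611409 to 152618593 (score 2000), and loops of 28.0 kb (score 3000) and 56.4 kb (score 2000) led from 152618381 and 152590004 to 152646358. A loop from 152646213 to 152656722, with a score of 2000 and both edges outside the window, closed the connection between the sets. Together they made a group of 11 anchors and 17 loops within 134 kb, with 9 closed triangles. Of the 28 groups of 11 anchors in the list, 3 had 17 or more loops and the median was 13. The same number, 3, had 9 or more triangles, against a median of 2.5.

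No edge of a loop of up to 5 Mb lay close upstream of the Id1 group. The nearest one before the window was at 152263473, 217 kb from its start, so the group ended on that side at the anchor at 152522453, whose 3 partners were all downstream. No loop of up to 5 Mb passed over the window, and 7 longer ones did.

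At Nodal, only 1 short and 1 very long loop were listed, both with the lowest score. The loop from 60870897 to 60879509 on chromosome 10 was 8.61 kb long with a score of 2000, and 57.1% of loops of like length scored higher. The anchor at 60879377 to 60879509, 132 bp wide, was also the start of a loop to 62355843, 1.48 Mb away, with a score of 2000. Only 39 listed loops were between 1 and 5 Mb long, and 6 of them had a score of 3000 or more. The distant partner had no other loop of up to 5 Mb. Counting loops of up to 5 Mb, the nearest edges outside the window lay 250.5 kb before and 138 kb after it. Among such loops, those at Nodal stood by themselves.

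At Id3, the 3 loops also had a score of 2000 each. One joined 135719569 to 135749865 on chromosome 4 (30.3 kb) and shared no anchor with any other. The anchor at 135762007 had 2 partners, both downstream and both outside the window, at 135802889 (40.9 kb) and at 136158893 (397 kb). The latter anchor, 309 bp wide, had 3 partners, and through it these 2 of the 3 Id3 loops belonged to a group of 7 anchors and 7 loops. That group also held the loop from 136018569 to 136025741 with a score of 20000, whose nearer edge is 257 kb from the anchor at 135762007. A single loop of up to 5 Mb, from 133742563 to 136019319 with a score of 2000, passed over the whole Id3 window. Just outside the window, 10.4 kb before its start, ended a loop from 135542949 to 135609600 with a score of 3000, higher than any at Id3.

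The Id2 window lay in a long stretch without listed edges. The last edge before it, at 25183818 on chromosome 12, was 516 kb from its start, and the next after it, at 32319296, was 6459 kb from its end. The 7135 kb between these edges, counting loops of up to 5 Mb, was matched or exceeded by 53 stretches in the list and by 2 on chromosome 12, itself included. The loop that ended before the window ran from 21549190 to 25183818, 3.63 Mb, with a score of 9000, the highest among the 39 loops of 1 to 5 Mb. The loop after it ran from 32319296 to 32339945 with a score of 2000. No loop of any length passed over the Id2 window, and 250 loops were listed on the chromosome.

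**Figure D3:**
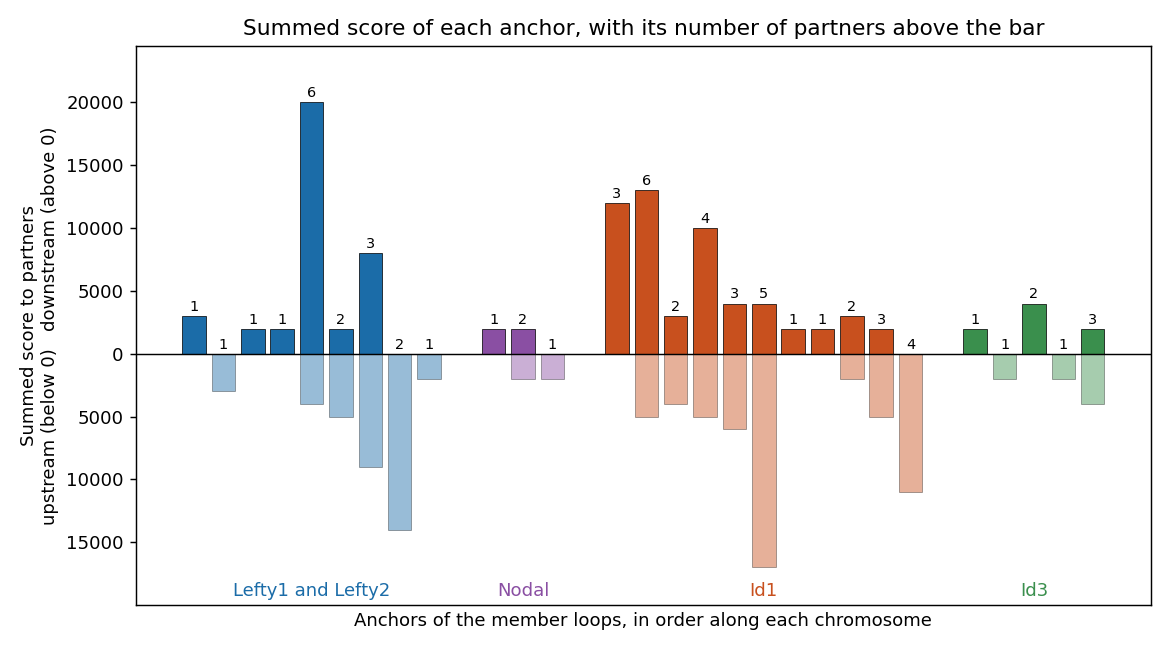
Summed score of each of the 28 anchors of the member loops, in order along each chromosome, with loops to downstream partners drawn above 0 and loops to upstream partners below 0, and the number of partners printed above each bar; loops over 5 Mb are left out. The tallest downstream bar, 20000, is the Lefty1 and Lefty2 anchor with 6 partners, and the deepest upstream bar, 17000, is the Id1 anchor with 5 partners.

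Over all windows, the scores of the 30 members ran from 2000 to 8000, with a median of 3000. The median of all listed loops of up to 5 Mb was 2000. Among the 30 member loops, 16, or 53.3% (exact 95% Clopper-Pearson interval 34.3 to 71.7%), had a score of 3000 or more, against 43.0% of the 7570 loops of that length in the list. By window the count was 11 of 16 at Id1 and 5 of 9 at Lefty1 and Lefty2. At Nodal and Id3 together it was 0 of 5, for which the interval runs up to 52.2%. The intervals of Id1 (41.3 to 89.0%) and of Lefty1 and Lefty2 (21.2 to 86.3%) include the share of the list. They cover counting error only, and loops that share an anchor are not independent.

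Scores of 5000 or more were found for 6 of the 30, or 20.0% (7.71 to 38.6%), against 13.3% of the list. These 6 were 4 loops at Lefty1 and Lefty2 and 2 at Id1, with lengths from 9.07 to 39.7 kb. The list itself reaches a score of 52000, which is a maximum over 7570 loops and not over 30. The 8000 of the strongest member was reached by 295 loops, or 3.82%.

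Beside loops of like length, 14 of the 30 members scored above the median, 14 at it and 2 below. The 2 below were the 8.61 kb loop at Nodal and the 7.18 kb loop in the Id1 window. For members longer than 14.1 kb the median of like loops was 2000, the lowest score, so none of these could lie below it. The same split over the whole list is not given here, so these counts do not show that members scored higher than like loops. The members' median length was 28.3 kb (quartiles 10.9 and 44.9 kb), and its order-statistic 95% interval of 13.5 to 40.9 kb includes the list's median of 27.7 kb. Among members with a score of 3000 or more, the median length was 15.2 kb. High scores were more common among short loops over the whole list too, and the list's median length at that limit is not given here. Whether the 15.2 kb sets the members apart from the list therefore cannot be told.

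**Figure D4:**
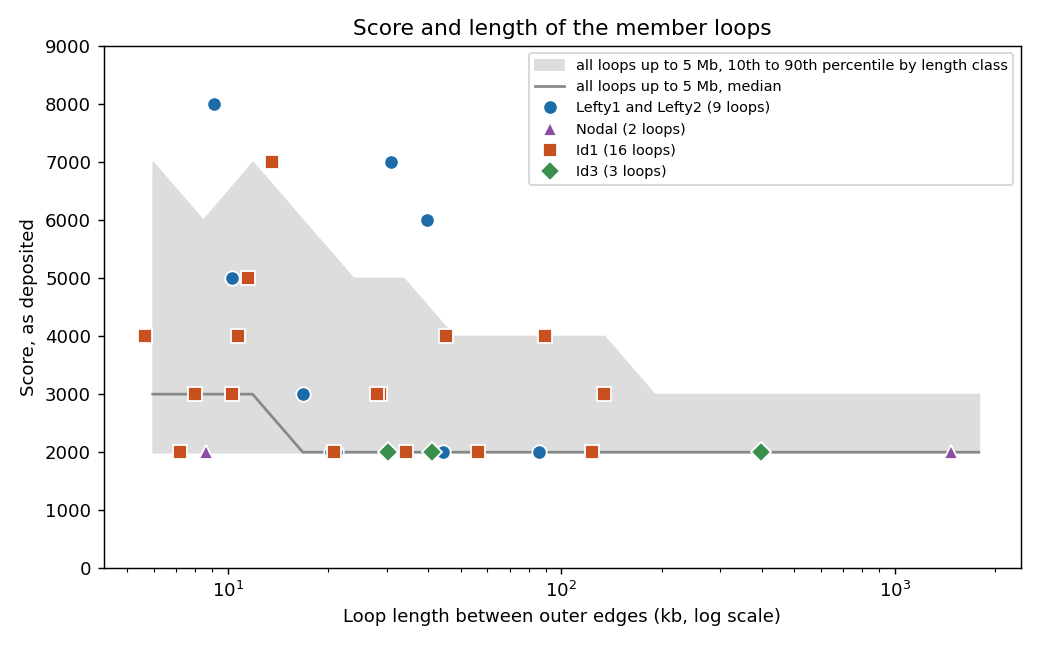
Deposited score (vertical axis) against loop length in kb (horizontal axis, log scale) for the 30 member loops of up to 5 Mb, with the 10th to 90th percentile (grey band) and the median (grey line) of all 7570 such loops by length class. The Lefty1 and Lefty2 loops with scores of 6000, 7000 and 8000 and the Id1 loop with a score of 7000 are those that 10% or fewer of loops of like length matched, and all loops at Nodal and Id3 lie at 2000.

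Shared anchors were found mainly at Id1. Of the 28 anchors of the member loops, 16, or 57.1% (37.2 to 75.5%), had 2 or more partners, against 37.4% of the 9269 anchors in the list. At Id1 this held for 9 of 11 anchors, at Lefty1 and Lefty2 for 4 of 9, at Id3 for 2 of 5 and at Nodal for 1 of 3. An anchor with many loops is met more often when anchors are reached through loops, so the share of the members is not on the same footing as that of the list. Anchors with 4 or more partners numbered 5 of 28, against 6.56% of the list, with 4 at Id1 and 1 at Lefty1 and Lefty2. Both edges were known for 12 of the 28 anchors, which were 103 to 629 bp wide with a median of 204 bp, beside 349 bp over 2034 such anchors in the list.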

How the data were processed

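BRD2 ChIA-PET loops of 2 replicates of untreated wild-type V6.5 cells were used as 1 list, which is of the merged dataset per the file headers. Bowtie, cutadapt and the build mm9 are named in the submitters' processing notes. The interaction caller and its thresholds were not stated in any source used, and the depth is unknown. The score of each loop was used as the authors deposited it. The deposited start and end positions of the first anchor were read as a loop's left and right outer edges, an inference, since the columns of the second anchor repeat the left edge. Loop length is the distance between these edges. Edges were joined into 1 anchor where a right edge followed a left edge by under 5000 bp. Anchors joined directly or through others form a group. Loops over 5 Mb were set apart, also for anchors and groups.

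The design gives no contrast and no replicate spread, so no test was run. Shares have exact Clopper-Pearson 95% intervals and the median length a binomial order-statistic interval. The windows, members and lists were chosen with earlier results of these data known. All loops of a window with up to 12 were named, otherwise the 5 with the highest score (ties by position, with the others tied at the last score named too) and the longest, and the anchor with the most partners. Other anchors and loops were named after their values were seen. The steps were tested on simulated lists with planted anchors. These lay farther apart than the first 6 anchors at Id1, so the joining of closely spaced edges was not tested. Other genes of the pathway, proteins and gene starts were not analysed here, since no mm9 annotation was used. The tools were scipy 1.17.1, pandas 2.3.3, matplotlib 3.10.9, numpy 2.4.6 and Python 3.11.15.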

Additional observations from a re-analysis of the deposited data

How the results depend on the processing

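Of 58 recomputed values, 46 stayed close to those reported (counts within 1.5 times, shares and the median inside their intervals) and 12 moved. Some of the 46 could not have moved, so the count overstates how stable the results are. The Id2 window held 0 loops, which stricter limits cannot lower. Counting loops over 5 Mb cannot change the loop number of the Nodal, Id1, Id2 and Id3 windows, which held none. With a score of 3000 or more, the loops at Lefty1 and Lefty2 fell to 5, those at Nodal and Id3 to 0 loops, 0 summed score and 0 groups, and the Id1 group split into 2, which follows from leaving out loops of the lowest score. The median member length was 15.2 kb under that limit, inside the wide interval of the reported 28.3 kb but more than 1.5 times below it. With both edges required in the window, Nodal and Id3 kept 1 loop each, with a summed score of 2000. Windows widened by 50 kb, loops over 5 Mb counted with the rest, edges joined within 10000 bp and shifted tiles moved none of the values computed under them. Leaving out a replicate could not be run on a pooled list. No paired analysis was possible because both samples belong to 1 group. Depth is unknown, which limits what a window without loops means.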
